A study of Mus musculus with 16 samples.

Results

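The genes described here encode proteins of the extracellular matrix other than collagens, together with the receptors that mark many fibroblasts. They are Fn1, Lum, Dcn, Postn, Fbn1, Sparc, Thbs1, Tnc, Pdgfra and Pdgfrb, 10 genes chosen by name. Of these, 9 were measured among the 19938 genes tested, each through 1 probe set (the one of highest mean where a gene has several), and Fbn1 was not analysed here. RNA of 16 mouse samples had been hybridised to 1-colour Affymetrix arrays, 1 sample per array. The mice carried reprogramming factors that doxycycline switches on, by a promoter and in cells that the labels do not name. Kidney tumors (3 arrays) were collected 7 days after the end of a 7-day course of doxycycline begun at 4 weeks of age, and age-matched normal kidney (3 arrays) was their control. Liver tumors (3 arrays), whose schedule the labels do not give, were set beside normal liver (3 arrays) of unstated age. Secondary kidney tumors (3 arrays) were primary tumors that had been regrown under the skin of immunodeficient mice, so that tumor and host RNA were measured together. The tissues had a 129xC57BL6 F1 or a mixed 129 and C57BL6 background, and the tumors, which arose in chimeras, could also hold cells of the ICR strain. A single array of 129xC57BL6 ES cells was used as a reference without a test. Whether replicates were separate animals is not in the labels, and the p-values measure only how far these samples scatter, part of which may be technical.

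Fibroblasts and related stromal cells secrete a meshwork to which other cells attach through integrins. Fibronectin, the product of Fn1, is a large adhesive glycoprotein of that meshwork, and it also circulates in blood as a product of hepatocytes. Lumican (Lum) and decorin (Dcn) are small leucine-rich proteoglycans that coat collagen fibrils. Periostin (Postn), osteonectin (Sparc), thrombospondin 1 (Thbs1) and tenascin C (Tnc) are matricellular proteins, which modify how cells respond to the matrix and are induced in wounds and tumors. Pdgfra and Pdgfrb encode the receptor tyrosine kinases for platelet-derived growth factors, PDGFRα typical of many fibroblasts and PDGFRβ of pericytes.

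Promoter sequence from a RefSeq table on GRCm38.p6 is shown for 4 of the genes that rose in secondary kidney tumors, Postn, Sparc, Tnc and Pdgfra. Each run is the 250 bases before the first listed start, 5′ to 3′ on the strand of the gene, in lower case, with any searched motif in capitals. Postn lies on the plus strand at chr3:54359017-54359266, Sparc on the minus strand at chr11:55420081-55420330, Tnc on the minus strand at chr4:64047016-64047265 and Pdgfra on the plus strand at chr5:75152001-75152250.
Postn: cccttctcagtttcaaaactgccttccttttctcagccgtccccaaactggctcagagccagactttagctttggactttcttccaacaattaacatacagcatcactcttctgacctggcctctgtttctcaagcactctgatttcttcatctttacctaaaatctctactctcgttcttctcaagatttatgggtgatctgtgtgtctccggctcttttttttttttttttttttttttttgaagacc
Sparc: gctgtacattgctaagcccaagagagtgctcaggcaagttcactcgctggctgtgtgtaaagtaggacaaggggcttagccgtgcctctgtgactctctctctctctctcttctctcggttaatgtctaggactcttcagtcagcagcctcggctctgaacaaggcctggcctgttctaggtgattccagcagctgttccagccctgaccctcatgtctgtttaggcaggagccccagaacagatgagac
Tnc: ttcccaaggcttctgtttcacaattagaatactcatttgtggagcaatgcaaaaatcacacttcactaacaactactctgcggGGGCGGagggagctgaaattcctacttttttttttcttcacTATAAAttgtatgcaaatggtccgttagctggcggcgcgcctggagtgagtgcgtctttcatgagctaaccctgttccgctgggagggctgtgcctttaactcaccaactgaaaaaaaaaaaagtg
Pdgfra: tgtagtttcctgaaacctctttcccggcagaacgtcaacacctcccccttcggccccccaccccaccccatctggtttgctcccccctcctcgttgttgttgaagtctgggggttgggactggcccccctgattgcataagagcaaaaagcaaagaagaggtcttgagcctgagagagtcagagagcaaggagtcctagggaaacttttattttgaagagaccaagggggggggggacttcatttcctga
The motifs searched were the core promoter box TATAAA on the gene strand alone and, on both strands, GGGCGG (bound by Sp1), GGAATG (core of a TEAD site), TGANTCA (AP-1 site) and the CArG box of serum response factor, none of which overlapped in these windows. The Tnc window held 1 TATAAA, whose first base lies at position -126 from the start, and 1 GGGCGG at -167, and the windows of Postn, Sparc and Pdgfra held no match. Of 32851 windows of that length, 7.59% held TATAAA, 32.7% GGGCGG, 12.6% GGAATG, 6.75% TGANTCA and 1.47% a CArG box. Tnc has a further listed start 79 bases downstream of the first, and Postn has one 1840 bases downstream. The promoters of Fn1, Lum, Dcn, Thbs1 and Pdgfrb are not shown.

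Some arrays stood apart from their group. Xist, the RNA of the inactive X chromosome, was at 10.84 and 10.18 (log2 intensity) on kidney tumor arrays 2 and 3 and at 10.45 and 11.35 on liver tumor arrays 2 and 3. It was at 5.60 and 5.88 on the first array of each of those groups. The adipocyte gene Adipoq was at 9.98 on normal kidney array 2, 10.38 on normal liver array 1 and 9.87 on secondary tumor array 1, whereas it was at most 6.16 on every other array. Results for the 9 genes are therefore given with and without these arrays where that matters. The other genes and the gene lists are given over all 16 arrays only. Normal kidney was rich in proximal tubule transcripts and normal liver in hepatocyte transcripts, with Slc34a1 at 13.74 in kidney and Alb at 13.82 in liver (mean log2 intensity over 3 arrays). Slc34a1 was also at 11.29 and 9.54 on normal liver arrays 1 and 2, against 7.75 on array 3. The source of that kidney transcript in normal liver was not tested.

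Levels are log2 of the deposited intensity, and a difference of 1 is a factor of 2 between group means. Differences are given ± SE with p-values adjusted by the Benjamini-Hochberg method over all 19938 genes in limma, and a gene was called at an adjusted p under 0.05. Because probe sets bind with different efficiency, a level is compared only with other levels of the same gene. Intensities summed over a list are compared between groups for the same list, and the brightest probe sets weigh most in them. Whole tissue was measured, so fewer cells of a type and less RNA per cell cannot be told apart.

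In kidney tumors, 3 of the 9 genes rose against normal kidney (Fn1, Sparc and Tnc) and none fell, with a median difference of 0.73. Over all genes, 21.7% were called higher in that comparison and 28.1% lower, and the median difference was -0.11. In secondary kidney tumors 7 of 9 rose against the same normal kidneys (all but Thbs1 and Pdgfrb), none fell, and the median was 1.95. The background there was 29.9% of all genes higher and 38.7% lower, with a median of -0.13. Both of these comparisons share their control arrays. Set directly against primary kidney tumors, secondary tumors were higher for 5 of 9 genes (Lum, Dcn, Postn, Sparc and Pdgfra) and lower for none, with a median of 1.12, where 18.5% of all genes were higher and 17.4% lower. In liver tumors 3 of 9 rose against normal liver (Thbs1, Tnc and Pdgfra), none fell, and the median was 0.54, against 21.5% of all genes higher and 30.7% lower. The tumor effect differed between kidney and liver for 2 of 9 genes, larger in kidney for Fn1 and larger in liver for Thbs1; of all genes, 7.54% differed towards kidney and 9.26% towards liver. Without kidney tumor arrays 2 and 3, Fn1 alone of the 9 stayed called in kidney tumors. Without liver tumor arrays 2 and 3, Thbs1 alone stayed called in liver tumors. With all 4 of these arrays left out, Fn1 and Tnc were called higher in kidney tumors, and in liver tumors Thbs1 and Tnc were called higher and Lum lower, at -1.07 (adjusted p = 0.0270). The count of 7 in secondary tumors was the same in all 30 alternative settings tried.

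**Figure D1:**
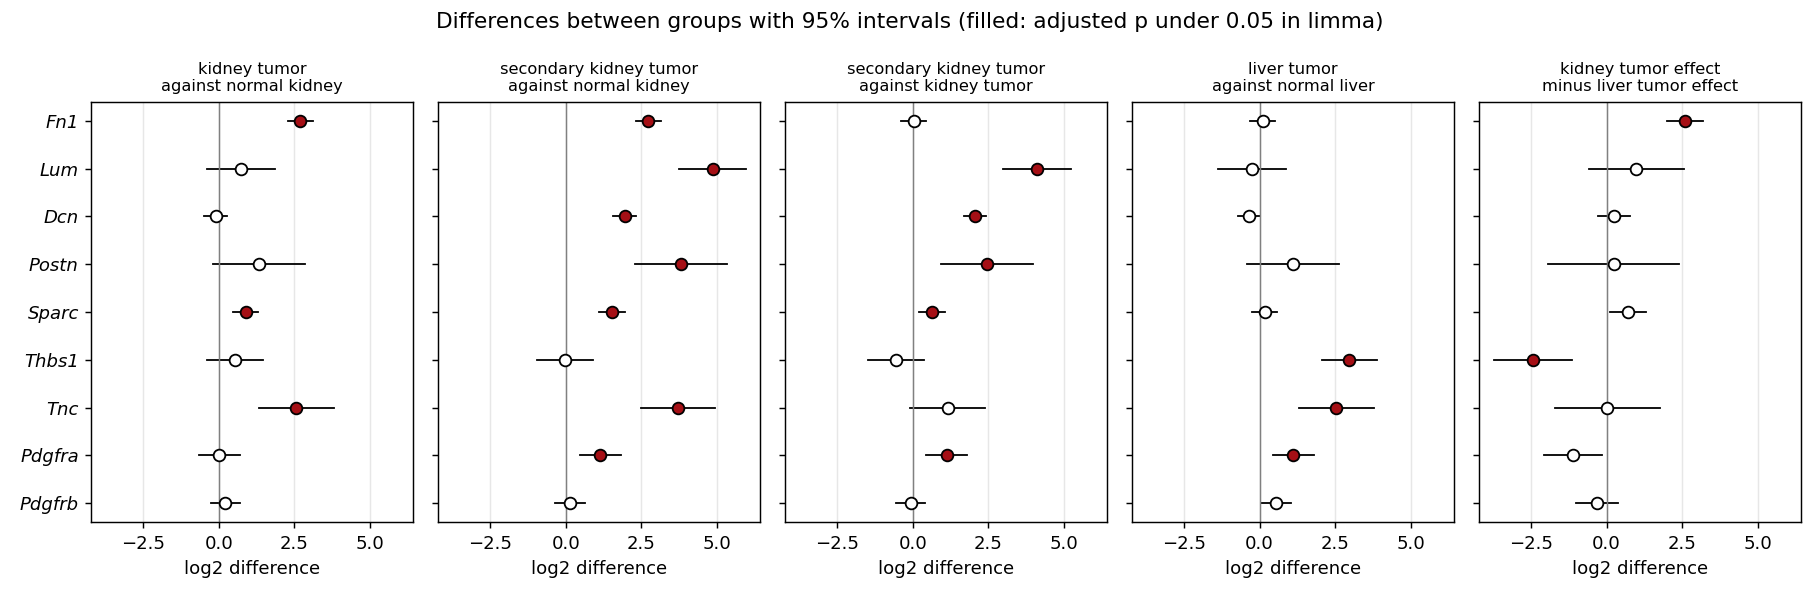
Log2 difference of each of the 9 genes (vertical axis) in 5 comparisons, with 95% intervals from limma; filled points have an adjusted p under 0.05 over all genes. Secondary kidney tumors against normal kidney show 7 filled points, all to the right of 0, and the rightmost panel shows filled points for Fn1 at 2.60 and Thbs1 at -2.43.

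Fn1, the fibronectin gene, rose in kidney tumors and was already high in normal liver. Fn1 read 9.62, 10.07 and 10.10 on the normal kidney arrays and 12.45, 12.66 and 12.76 on the kidney tumor arrays. Every tumor array was above every normal kidney array, and the difference was 2.70 ± 0.19 (adjusted p = 4.22e-07), a 6.48-fold higher level. Normal liver already read 13.25, 13.28 and 13.22, and liver tumors read 13.44, 13.25 and 13.36, which overlapped. The liver difference was 0.10 ± 0.19 (95% interval -0.32 to 0.52, adjusted p = 0.678). The kidney effect exceeded the liver effect by 2.60 ± 0.27 (adjusted p = 7.43e-05), and both Fn1 calls held in all 30 alternative settings. Secondary tumors spread more widely, at 13.16, 12.60 and 12.22, and stood 2.73 ± 0.19 above normal kidney (adjusted p = 7.64e-08) and 0.03 ± 0.19 from primary tumors (95% interval -0.38 to 0.45, adjusted p = 0.904). In the order of means, liver tumor and normal liver did not differ beyond their spread, nor did secondary and primary kidney tumors. The liver pair stood above the kidney tumor pair (normal liver above secondary tumors by 0.59, adjusted p = 0.0148), and normal kidney stood lowest. The Fn1 level in normal kidney minus that in normal liver was -3.32 ± 0.19 (adjusted p = 2.54e-08).

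Both small leucine-rich proteoglycan genes were higher in secondary than in primary kidney tumors. Lum read 5.85, 6.34 and 5.49 in normal kidney, 5.69, 6.54 and 7.66 in kidney tumors, and 10.87, 10.89 and 10.48 in secondary tumors. Normal kidney and primary tumors overlapped, while every secondary tumor array was higher than all of them. Lum was 4.12 ± 0.52 higher in secondary than in primary tumors (adjusted p = 3.98e-05), a 17.4-fold difference, and 4.85 ± 0.52 above normal kidney (adjusted p = 2.96e-06). Its level in normal kidney lay in the dimmest 33.3% of genes on all 3 arrays, where folds are compressed. The primary tumor difference of 0.73 ± 0.52 was not called (95% interval -0.39 to 1.85, adjusted p = 0.253). It was called with array weights (0.94, adjusted p = 0.0422) and was -0.21 without kidney tumor arrays 2 and 3.

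Dcn was likewise highest in secondary tumors. It read 11.12, 11.36 and 10.89 in normal kidney, 10.75, 10.93 and 11.38 in kidney tumors, and 13.18, 13.10 and 12.95 in secondary tumors. Here too the secondary tumors lay above both other kidney groups, by 2.05 ± 0.17 against primary tumors (adjusted p = 1.01e-06) and 1.95 ± 0.17 against normal kidney (adjusted p = 5.3e-07). Primary tumors and normal kidney differed by -0.10 ± 0.17 (95% interval -0.48 to 0.27, adjusted p = 0.627). In liver neither proteoglycan gene was called. Lum read 9.33, 8.79 and 9.04 in normal liver and 7.98, 10.06 and 8.36 in liver tumors, a difference of -0.25 ± 0.52 (adjusted p = 0.691). Dcn read 12.54, 12.19 and 12.26 against 11.98, 12.20 and 11.78, a difference of -0.34 ± 0.17 (adjusted p = 0.107). For both genes the tumor arrays overlapped the normal ones. When arrays were centred on their medians, the Dcn difference in liver was called, at -0.45 (adjusted p = 0.0294). With array weights it was called as well (-0.45, adjusted p = 0.0280). For both genes the secondary tumors stood above normal liver, by 1.69 for Lum (adjusted p = 0.0101) and 0.74 for Dcn (adjusted p = 0.00177). Normal liver and liver tumor formed the middle pair, and normal kidney and kidney tumor the low pair.

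Among the matricellular genes, Postn varied widely within groups other than the secondary tumors, in which it rose. It read 7.54, 9.22 and 7.65 in normal kidney, with the high value on the array rich in Adipoq, and 8.25, 9.38 and 10.79 in kidney tumors. Those groups overlapped, and the difference of 1.34 ± 0.70 was not called (adjusted p = 0.131). It was called without kidney tumor array 1 (1.95, adjusted p = 0.0377) and with array weights (1.71, adjusted p = 0.0256). Secondary tumors were tight at 11.97, 12.04 and 11.80, all above both kidney groups. They were 3.80 ± 0.70 above normal kidney (adjusted p = 3.8e-04), a 13.9-fold difference, and 2.46 ± 0.70 above primary tumors (adjusted p = 0.0149). The second of these calls was lost without kidney tumor array 1, at 1.85 (adjusted p = 0.0648). In liver, Postn read 10.99, 9.38 and 10.22 in normal tissue and 9.89, 11.92 and 12.08 in tumors, and the difference of 1.10 ± 0.70 was not called (adjusted p = 0.198). It was called without liver tumor array 1 (1.81, adjusted p = 0.0394) and with array weights (1.71, adjusted p = 0.0297), and was -0.30 without liver tumor arrays 2 and 3. Liver tumor array 1 lay within the normal range, and the 2 arrays with high Xist lay above it. No neighbours in the order of the 5 Postn means differed by a called amount.

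Sparc, a collagen-binding glycoprotein, rose in primary kidney tumors and was higher again in secondary ones. It read 11.42, 12.14 and 11.88 in normal kidney, 12.48, 12.84 and 12.78 in kidney tumors, and 13.42, 13.39 and 13.19 in secondary tumors. The 3 groups did not overlap. The steps were 0.89 ± 0.19 from normal kidney to primary tumor (adjusted p = 0.00186) and 0.64 ± 0.19 from primary to secondary tumor (adjusted p = 0.0207). Without kidney tumor arrays 2 and 3 the first step was 0.67 (adjusted p = 0.104). The second lost its call without kidney tumor array 1 (0.53, adjusted p = 0.0779), without secondary tumor array 1 (0.59, adjusted p = 0.0640) or without secondary tumor array 2 (0.61, adjusted p = 0.0626). Secondary tumors exceeded normal kidney by 1.52 ± 0.19 (adjusted p = 1.48e-05). Liver samples overlapped, at 13.02, 12.50 and 12.64 in normal tissue and 12.59, 13.02 and 13.06 in tumors, a difference of 0.17 ± 0.19 (adjusted p = 0.466). In the order of means, only the step from kidney tumor down to normal kidney was called.

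Thbs1, which encodes an activator of latent TGFβ and an inhibitor of new vessels, rose in liver tumors and was not called in either kidney tumor group. It read 8.22, 9.08 and 7.65 in normal liver and 10.39, 11.08 and 12.36 in liver tumors. No tumor array reached down to the normal ones, and the difference was 2.96 ± 0.42 (adjusted p = 1.09e-04), a 7.79-fold rise that was called in all 30 alternative settings at values from 2.08 to 3.41. In kidney it was tight at 10.66, 10.60 and 10.60 in normal tissue, and kidney tumors read 10.82, 11.18 and 11.46. The tumor arrays were all slightly higher, but the difference of 0.54 ± 0.42 was not called (95% interval -0.38 to 1.45, adjusted p = 0.308). In a fit on those groups alone it was called (adjusted p = 0.0289). Secondary tumors read 10.72, 10.78 and 10.30 and overlapped normal kidney, with a difference of -0.02 ± 0.42 (95% interval -0.94 to 0.90, adjusted p = 0.971). The kidney effect minus the liver effect was -2.43 ± 0.60 (adjusted p = 0.0147). That call was lost without kidney tumor arrays 2 and 3 (adjusted p = 0.0511), without liver tumor arrays 2 and 3 (-1.54, adjusted p = 0.0705) and without normal kidney array 2 and normal liver array 1 (-2.39, adjusted p = 0.0606). In the order of means, normal liver stood below the other 4 groups, whose neighbours did not differ by a called amount. Normal kidney exceeded normal liver by 2.30 ± 0.42 (adjusted p = 7.35e-04), the one gene of the 9 called in that direction.

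Tnc, a glycoprotein abundant in embryonic and healing tissue, rose in tumors of both organs. It read 7.27, 7.17 and 7.20 in normal kidney, 9.48, 9.49 and 10.34 in kidney tumors and 10.72, 10.98 and 11.07 in secondary tumors. The 3 ranges did not overlap. Primary tumors were 2.56 ± 0.57 above normal kidney (adjusted p = 0.00217), a 5.89-fold difference, and secondary tumors 3.71 ± 0.57 above it (adjusted p = 8.06e-05). The step between primary and secondary tumors was 1.15 ± 0.57 (adjusted p = 0.135) and was not called over all 16 arrays. In a fit on those groups alone it was called (adjusted p = 0.0174). In liver, Tnc read 7.96, 7.35 and 7.62 in normal tissue and 8.40, 10.49 and 11.63 in tumors, a difference of 2.53 ± 0.57 (adjusted p = 0.00275). All 3 liver tumors were above normal liver, array 1 by the least. Without the tumor arrays with high Xist in the organ concerned, the kidney difference was 2.27 (adjusted p = 0.0656) and the liver difference 0.76 (adjusted p = 0.0949). The kidney and liver effects differed by 0.03 ± 0.80 (95% interval -1.72 to 1.77, adjusted p = 0.986), an interval wide enough to hold differences of more than 1 in either direction. Without liver tumor arrays 2 and 3 the kidney effect was the larger by 1.80 (adjusted p = 0.0113). Both normal tissues stood below the 3 tumor groups in the order of means (kidney tumor above normal liver by 2.13, adjusted p = 0.00617), with no called step within either set.

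**Figure D2:**
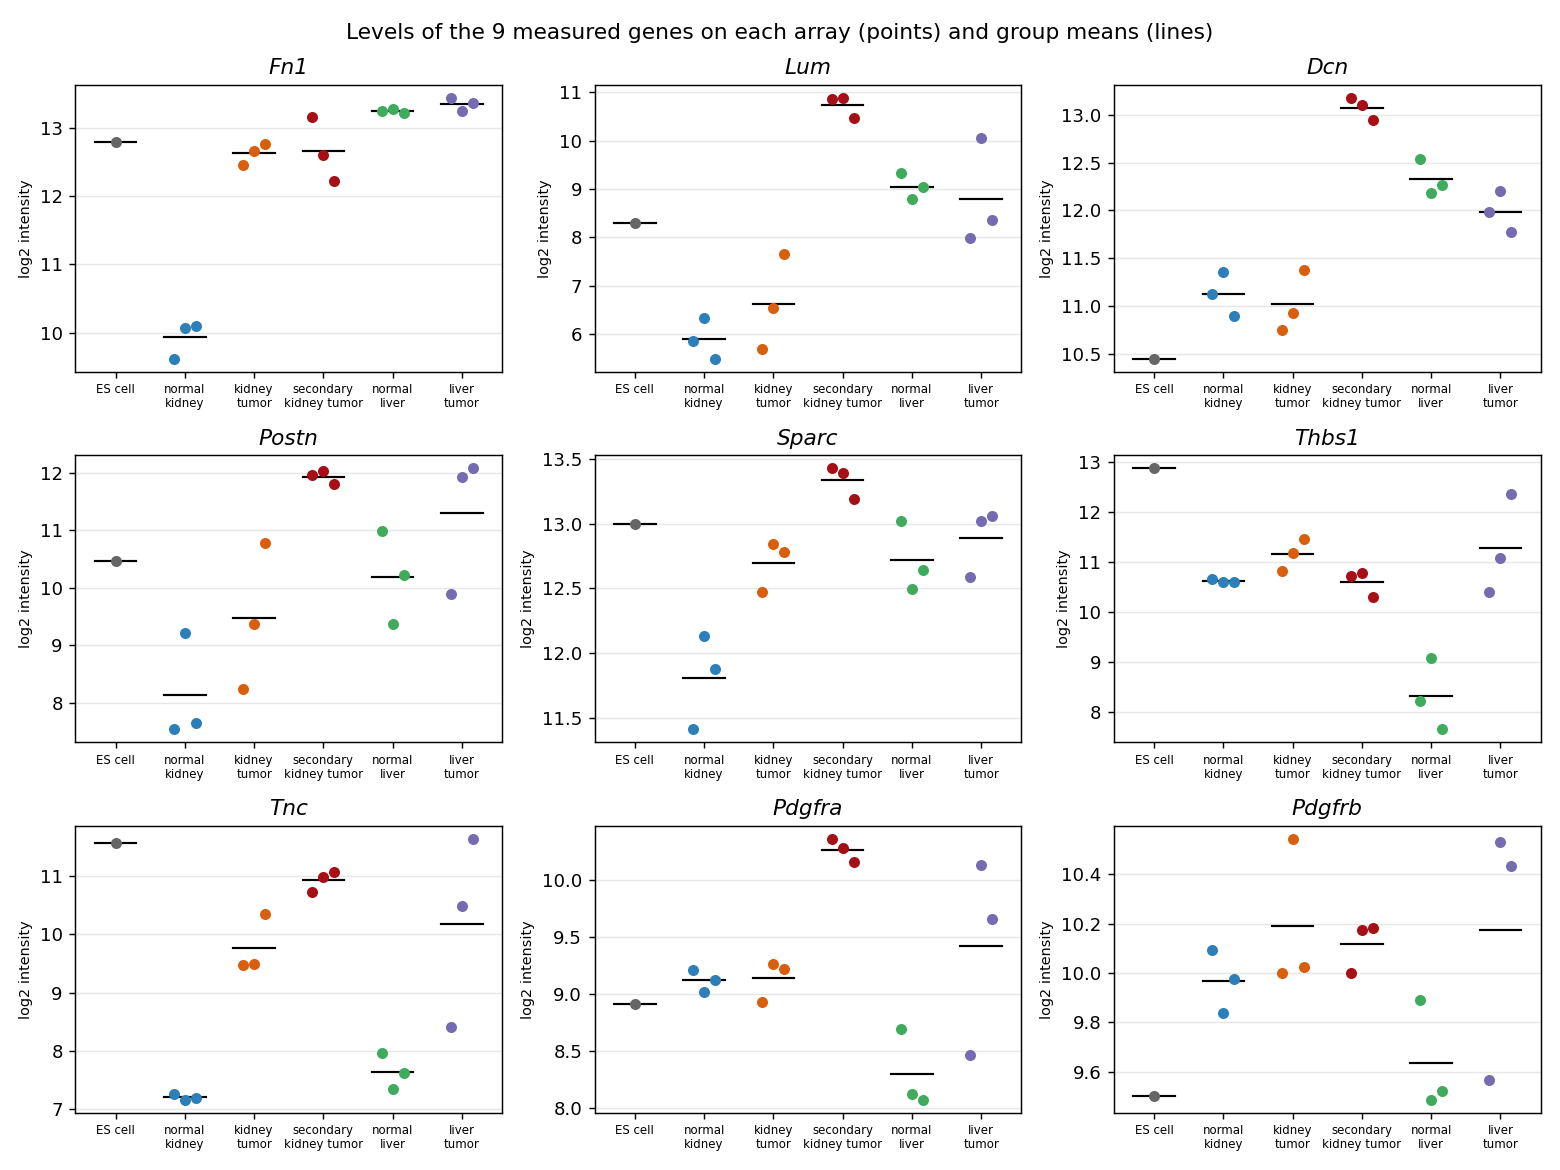
Log2 intensity (vertical axis, a separate scale for each gene) of the 9 genes on each of the 16 arrays, by group; points are arrays and lines are group means. Lum, Dcn and Pdgfra are highest in the 3 secondary kidney tumors, Fn1 is lowest in normal kidney and Thbs1 in normal liver.

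The 2 receptor genes differed from each other. Pdgfra read 9.21, 9.02 and 9.13 in normal kidney, 8.93, 9.26 and 9.22 in kidney tumors, and 10.36, 10.28 and 10.15 in secondary tumors. Only the secondary tumors stood clear of the normal range, at 1.14 ± 0.31 above normal kidney (adjusted p = 0.00609) and 1.12 ± 0.31 above primary tumors (adjusted p = 0.0132). The latter call was lost without kidney tumor arrays 2 and 3 (1.33, adjusted p = 0.0567) and without the 3 arrays with high Adipoq (1.08, adjusted p = 0.0553). The primary tumor difference was 0.02 ± 0.31 (95% interval -0.66 to 0.70, adjusted p = 0.965). Liver tumors read 8.46, 10.13 and 9.65 against 8.70, 8.13 and 8.08 in normal liver, a difference of 1.12 ± 0.31 (adjusted p = 0.0102). Liver tumor array 1 lay below normal liver array 1, and without liver tumor arrays 2 and 3 the difference was 0.16 (adjusted p = 0.603). It was also not called in a fit on the liver groups alone (adjusted p = 0.0755). The kidney effect minus the liver effect was -1.10 ± 0.44 (adjusted p = 0.116), called without liver tumor array 1 (-1.57, adjusted p = 0.00136) and with array weights (-1.18, adjusted p = 0.0134). The secondary tumors exceeded liver tumors by 0.84 (adjusted p = 0.0450), the only called step in the order of means. Over all 16 arrays Pdgfrb was called in none of the 5 comparisons between tumors and normal tissue or between tumor effects. It read 10.09, 9.84 and 9.98 in normal kidney, 9.999, 10.54 and 10.02 in kidney tumors and 9.999, 10.17 and 10.18 in secondary tumors, which overlapped. The intervals were -0.27 to 0.70 for primary and -0.34 to 0.63 for secondary tumors against normal kidney. In liver it read 9.89, 9.49 and 9.52 in normal tissue and 9.57, 10.53 and 10.43 in tumors, a difference of 0.54 ± 0.22 (adjusted p = 0.0584). Without liver tumor arrays 2 and 3 that difference was -0.07. It was called without liver tumor array 1 (0.85, adjusted p = 0.00137), without normal liver array 1 (0.67, adjusted p = 0.0426), without kidney tumor array 2 (0.54, adjusted p = 0.0486) and with array weights (0.70, adjusted p = 0.00611).

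Of the 4 PDGF ligand genes, Pdgfa, whose product binds PDGFRα, rose in kidney tumors by 0.52 ± 0.11 (adjusted p = 0.00150), in secondary tumors by 0.43 ± 0.11 against normal kidney (adjusted p = 0.00390) and in liver tumors by 0.66 ± 0.11 (adjusted p = 3.21e-04). Pdgfd and Pdgfb, whose products bind PDGFRβ, fell in secondary tumors against normal kidney, by 1.35 ± 0.33 (adjusted p = 0.00280) and 0.89 ± 0.27 (adjusted p = 0.0116). The secondary minus primary tumor difference of Pdgfb was -0.85 ± 0.27 (adjusted p = 0.0277). No ligand gene was called for a difference between the kidney and the liver effect.

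The individual tumor arrays were uneven in the same genes. Against the mean of normal liver, liver tumor array 1 stood at 0.76 or less for every gene except Thbs1, which was 2.08 higher. Liver tumor arrays 2 and 3 were higher by 2.77 and 4.04 for Thbs1, 2.85 and 3.99 for Tnc, and 1.73 and 1.88 for Postn. Among kidney tumors, array 3 had the highest Fn1, Lum, Dcn, Postn, Tnc and Thbs1, and array 2 the highest Sparc, Pdgfra and Pdgfrb. Array 1 had the lowest level of every gene, for Tnc by little (9.48 against 9.49 on array 2). The 3 secondary tumors lay close together for Lum (10.48 to 10.89) and Postn (11.80 to 12.04), while Fn1 ran from 12.22 to 13.16. Xist was high on arrays 2 and 3 of both primary tumor groups, and its part in these differences was not tested.

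**Figure D3:**
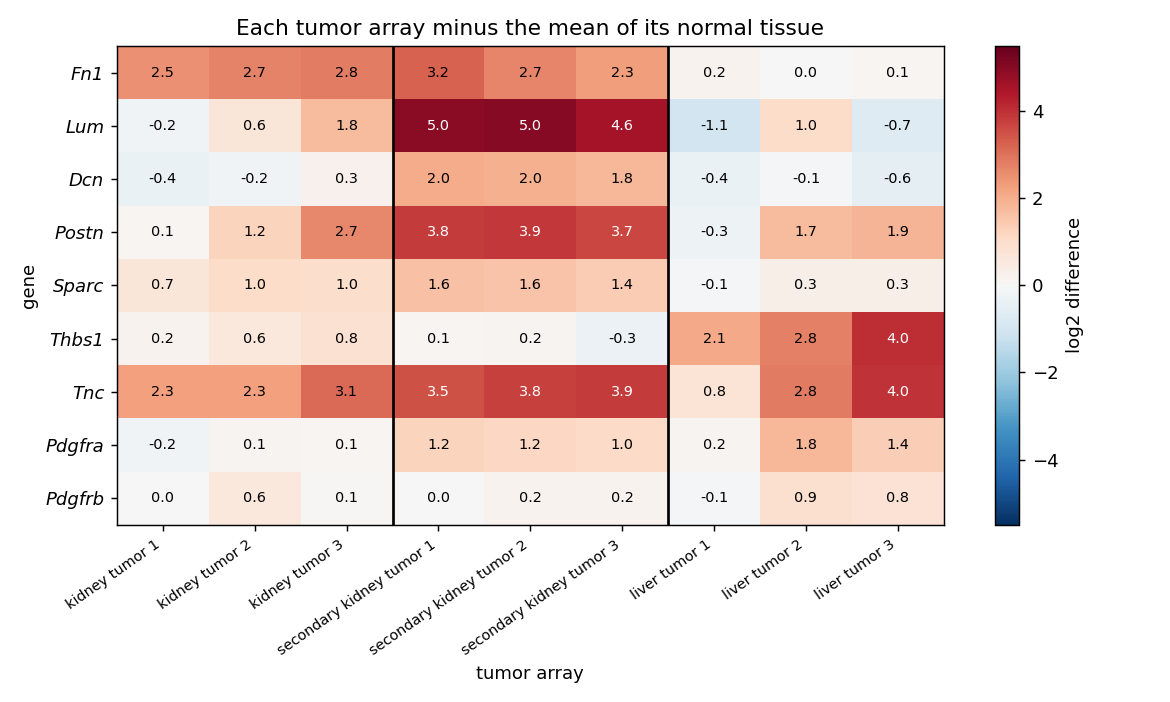
Each of the 9 tumor arrays (horizontal axis) minus the mean of its normal tissue, in log2, for each gene (vertical axis); red is higher and blue lower than normal, and the number in each cell is the difference. The secondary kidney tumors are more than 1 above normal kidney for 7 genes on all 3 arrays, and liver tumor array 1 stands at 0.76 or lower for all genes but Thbs1, with Lum at -1.07.

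Other matrix genes also changed. Of 23 other matrix glycoprotein and elastic fibre genes, 12 rose and 4 fell in kidney tumors (median 0.84, all genes -0.11). In secondary tumors 17 rose and 2 fell against the same normal kidneys (median 1.39, all genes -0.13), and 8 rose and 3 fell in liver tumors (median 0.16, all genes -0.13). In the same order, 21.7%, 29.9% and 21.5% of all genes rose and 28.1%, 38.7% and 30.7% fell. Fbn2, a microfibril gene of developing tissue, rose by 2.95 ± 0.25 in kidney tumors (adjusted p = 1.39e-06) and by 2.33 ± 0.25 in liver tumors (adjusted p = 1.18e-05). Lox, which crosslinks collagen and elastin, rose by 2.36 ± 0.44 in kidney tumors (adjusted p = 5.65e-04). Fbln5 fell there by 1.55 ± 0.33 (adjusted p = 0.00147). In secondary tumors Vtn (vitronectin) was 4.63 ± 0.31 and Mfap2 3.67 ± 0.22 above normal kidney (adjusted p = 4.80e-08 and 2.16e-08).

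The other 12 proteoglycan genes were divided. In kidney tumors 2 rose and 5 fell (median -0.16, all genes -0.11), where 21.7% of all genes rose and 28.1% fell. In secondary tumors against normal kidney 5 rose and 2 fell (median 0.59, all genes -0.13), where 29.9% of all genes rose and 38.7% fell. Vcan (versican) rose by 4.63 ± 0.37 in kidney tumors (adjusted p = 9.68e-07), by 5.55 ± 0.37 in secondary tumors (adjusted p = 5.01e-08) and by 3.64 ± 0.37 in liver tumors (adjusted p = 8.54e-06). In normal kidney Vcan lay in the dimmest 33.3% of genes on all 3 arrays, as Aspn did in normal kidney and in kidney tumors, so that their folds are compressed. Gpc3, a glypican gene active in fetal tissue, rose by 2.85 ± 0.32 in kidney tumors and by 3.16 ± 0.32 in liver tumors (adjusted p = 1.18e-05 and 7.97e-06). Ogn and Aspn are small leucine-rich proteoglycans like Lum and Dcn. Ogn fell by 1.93 ± 0.54 in kidney tumors (adjusted p = 0.00912), and secondary exceeded primary tumors by 2.81 ± 0.54 for Ogn (adjusted p = 0.00117) and 3.57 ± 0.48 for Aspn (adjusted p = 7.44e-05). Against primary tumors 6 of the 12 were higher in secondary tumors and none lower, where 18.5% of all genes were higher and 17.4% lower.

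Of 15 other matricellular genes, 5 rose and 2 fell in kidney tumors, 7 rose and 2 fell in secondary tumors against normal kidney, and 3 rose and 2 fell in liver tumors, with medians of 0.26, 0.44 and 0.08. Those counts stand beside 21.7%, 29.9% and 21.5% of all genes higher and 28.1%, 38.7% and 30.7% lower. The CCN genes Ccn1 and Ccn2 encode secreted proteins induced by growth factors and cell stretch. In liver tumors Ccn2 rose by 2.73 ± 0.28 (adjusted p = 7.90e-06) and Ccn1 by 2.19 ± 0.30 (adjusted p = 8.21e-05). In kidney tumors Ccn1 rose by 1.73 ± 0.30 (adjusted p = 3.67e-04), and the Ccn2 effect in kidney minus that in liver was -2.47 ± 0.39 (adjusted p = 0.00104), the same direction as for Thbs1. The secondary minus primary tumor difference was -1.39 ± 0.30 for Ccn1 (adjusted p = 0.00294), -0.96 ± 0.28 for Ccn2 (adjusted p = 0.0158) and 2.83 ± 0.39 for Ccn3 (adjusted p = 8.59e-05).

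Receptor genes whose products bind these proteins, integrin subunits with Cd36 and Cd47, showed 1 rise and 5 falls among 12 in kidney tumors. Of all genes, 21.7% rose and 28.1% fell there. The 12 showed 3 rises and 5 falls in secondary tumors against normal kidney (29.9% and 38.7% of all genes). In liver tumors they showed 4 and 1 (21.5% and 30.7% of all genes). The medians were -0.18, -0.20 and 0.26. Itga5, the α subunit of the main fibronectin receptor, rose by 2.07 ± 0.21 in kidney tumors (adjusted p = 4.72e-06). Its kidney effect exceeded its liver effect by 1.97 ± 0.29 (adjusted p = 6.98e-04), as the Fn1 effect did. Itgb6, an epithelial partner of αv, fell by 1.23 ± 0.32 in kidney tumors (adjusted p = 0.00642) and by 4.81 ± 0.32 in secondary tumors against normal kidney (adjusted p = 4.92e-08), where it lay in the dimmest 33.3% of genes on all 3 tumor arrays. Of 12 matrix protease and inhibitor genes, 5 rose in kidney tumors and 7 in liver tumors, and none fell in either (all genes, 21.7% and 21.5% higher). In secondary tumors 5 rose and 3 fell against normal kidney (all genes, 29.9% and 38.7%). Against primary tumors 3 were higher and 4 lower (all genes, 18.5% and 17.4%). Timp1, an inhibitor of metalloproteases, rose by 3.42 ± 0.43 in kidney and 2.77 ± 0.43 in liver tumors (adjusted p = 2.81e-05 and 2.07e-04). Mmp14, a membrane-bound metalloprotease, rose by 2.51 ± 0.16 in kidney tumors (adjusted p = 1.68e-07). The 8 TGFβ pathway genes listed were ligands and receptors with Smad7 and Skil. Of these, 5 rose in kidney tumors and 6 in liver tumors, and none fell (all genes, 21.7% and 21.5% higher). In secondary tumors 4 rose and 1 fell against normal kidney (all genes, 29.9% and 38.7%). Against primary tumors 1 was higher and 3 lower, where 18.5% of all genes were higher and 17.4% lower. Tgfb2 rose by 2.74 ± 0.36 in kidney tumors (adjusted p = 3.83e-05) and 2.08 ± 0.36 in liver tumors (adjusted p = 4.49e-04).

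Markers of fibroblasts outside the 9 genes also differed between groups. Of 14 such genes, 4 rose and 1 fell in kidney tumors (median 0.57), where 21.7% of all genes rose and 28.1% fell. In secondary tumors against the same normal kidneys 13 rose and none fell (median 1.84), where 29.9% of all genes rose and 38.7% fell. Secondary tumors were higher than primary ones for 10 and lower for none (median 1.07), against 18.5% and 17.4% of all genes. In liver tumors 4 rose and 1 fell (median 0.35), against 21.5% and 30.7% of all genes. The summed intensity of the 14 genes ran from 3214 to 3918 in normal kidney, from 4411 to 7281 in kidney tumors and from 12818 to 21653 in secondary tumors, so that these groups did not overlap. In liver the sums were 3731 to 6730 in normal tissue and 3995 to 9233 in tumors, which overlapped. Col1a1 rose by 1.29 ± 0.39 in kidney tumors (adjusted p = 0.0148) and by 3.11 ± 0.39 in secondary tumors against normal kidney (adjusted p = 1.38e-05). Dpt (dermatopontin) was 3.46 ± 0.77 higher in secondary than in primary tumors (adjusted p = 0.00347).

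Markers of other cell types were counted in the same comparisons, not all of which are given for every list. Over all genes, 21.7% were higher and 28.1% lower in kidney tumors, and 21.5% and 30.7% in liver tumors. The shares for secondary tumors were 29.9% and 38.7% against normal kidney, and 18.5% and 17.4% against primary tumors. Some of the counts below lie near those shares, such as 2 of 7 hepatocyte markers higher in kidney tumors. All 6 keratinocyte markers rose in the secondary tumors against normal kidney, with sums of 4393 to 6185 against at most 864 on the other 13 arrays, and Krt5 at a mean of 10.98 there. Of 8 oligodendrocyte progenitor and astrocyte markers, 6 rose and 2 fell in secondary tumors against normal kidney (median 1.75), and 6 were higher and none lower than in primary tumors (median 2.16). Gfap, the astrocyte filament gene, averaged 6.47 in normal kidney but 11.12 in secondary tumors, and Olig1 averaged 7.07 and 9.68. The 8 summed to 7961 to 10612 in secondary tumors, 6710 to 7531 in normal kidney and 2551 to 4727 in primary kidney tumors. Normal liver, at 7922 to 8759, overlapped the secondary tumors. Most of the sum in normal tissue was Aldh1l1, at a mean of 12.28 in kidney and 12.76 in liver. It was at 10.70 in primary and 10.03 in secondary kidney tumors. In primary kidney tumors 1 of the 8 rose and 3 fell, and in liver tumors 1 rose and 4 fell. Of 13 primitive and parietal endoderm markers, which include matrix genes of basement membranes, 8 rose and none fell in kidney tumors (median 0.45) and likewise in liver tumors (median 0.76). In secondary tumors 5 rose and 1 fell against normal kidney, and 1 was higher and 4 lower than in primary tumors. Of 8 macrophage markers, 7 rose and 1 fell in kidney tumors, 6 rose and none fell in secondary tumors against normal kidney, and 3 rose and none fell in liver tumors. Their summed intensity was 10445 to 11285 in kidney tumors, 10467 to 20027 in secondary tumors and 3169 to 3814 in normal kidney. In liver the sums were 10641 to 13886 in tumors and 6548 to 7015 in normal tissue. Of 9 pericyte and smooth muscle markers, 3 rose and 1 fell in kidney tumors, 4 rose and 1 fell in secondary tumors against normal kidney, and 3 rose and none fell in liver tumors. They summed to 3792 to 3871 in normal kidney, 5100 to 8745 in kidney tumors and 6698 to 10315 in secondary tumors, while in liver they were 2865 to 7792 in normal tissue and 6554 to 13858 in tumors. Of 9 endothelial markers, 4 fell in kidney tumors and 7 in secondary tumors against normal kidney, none rose, and none was called in liver tumors. Their sums were 9920 to 10310 in normal kidney, 5135 to 6996 in primary and 4394 to 5779 in secondary tumors. Of 8 proximal tubule markers, 3 fell in kidney tumors and 8 in secondary tumors, and they summed to 70441 to 73754 in normal kidney, 19112 to 38173 in primary tumors and 1466 to 2076 in secondary tumors. In kidney tumors 2 of 7 chondrocyte and osteoblast markers rose and none fell, and 1 of 6 hepatic stellate markers rose and 1 fell. There 2 of 7 hepatocyte markers rose and 3 fell, and 1 of 7 adipocyte markers fell. In the same order, secondary tumors against normal kidney showed 2 rises and 1 fall, 3 and 1, 1 and 4, and 0 and 1. Liver tumors showed 0 and 3, 1 and 2, 0 and 2, and 0 and 1. Against primary tumors, secondary tumors showed 3 higher and 0 lower, 2 and 0, 0 and 4, and 0 and 0. The part of these cell types in the differences of the 9 genes was not tested.

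Normal kidney held less of most of these transcripts than normal liver. Of the 9 genes, 5 were lower in kidney (Fn1, Lum, Dcn, Postn and Sparc) and 1, Thbs1, was higher, where 16.4% of all genes were lower and 21.4% higher; the median was -0.91 against -0.04 for all genes. The kidney minus liver difference was -3.16 ± 0.52 for Lum (adjusted p = 2.84e-04), -1.21 ± 0.17 for Dcn (adjusted p = 8.83e-05) and -0.91 ± 0.19 for Sparc (adjusted p = 0.00212). Pdgfra was 0.82 ± 0.31 higher in kidney, which was not called (adjusted p = 0.0565) but was called in 9 of the 30 alternative settings, among them the fit on those groups alone (adjusted p = 0.00528). For Postn the kidney minus liver difference was -2.06 ± 0.70 (adjusted p = 0.0342), a call that was lost without normal kidney array 1 (-1.76, adjusted p = 0.116), normal kidney array 3 (-1.81, adjusted p = 0.108), normal liver array 1 (-1.66, adjusted p = 0.121) or normal liver array 3 (-2.05, adjusted p = 0.0786). Compared directly, kidney tumors were below liver tumors for 3 of the 9 genes and above them for none, with differences of -0.72 ± 0.19 for Fn1 (adjusted p = 0.0252), -2.17 ± 0.52 for Lum (adjusted p = 0.0133) and -0.97 ± 0.17 for Dcn (adjusted p = 0.00190). Over all genes, 5.9% were lower and 7.06% higher in that comparison.

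Across the 15 arrays of tissue and tumor, the levels of the 9 genes formed no single block. Lum and Dcn had a Pearson r of 0.96, Postn and Sparc 0.91, and Lum and Postn 0.89. Thbs1 ran with Pdgfrb (0.69) and Pdgfra (0.61) rather than with Dcn (-0.31) or Lum (-0.21). Fn1 correlated most with Sparc (0.78). The points share 5 groups and their tissue differences, so the values are a description with no test.

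**Figure D4:**
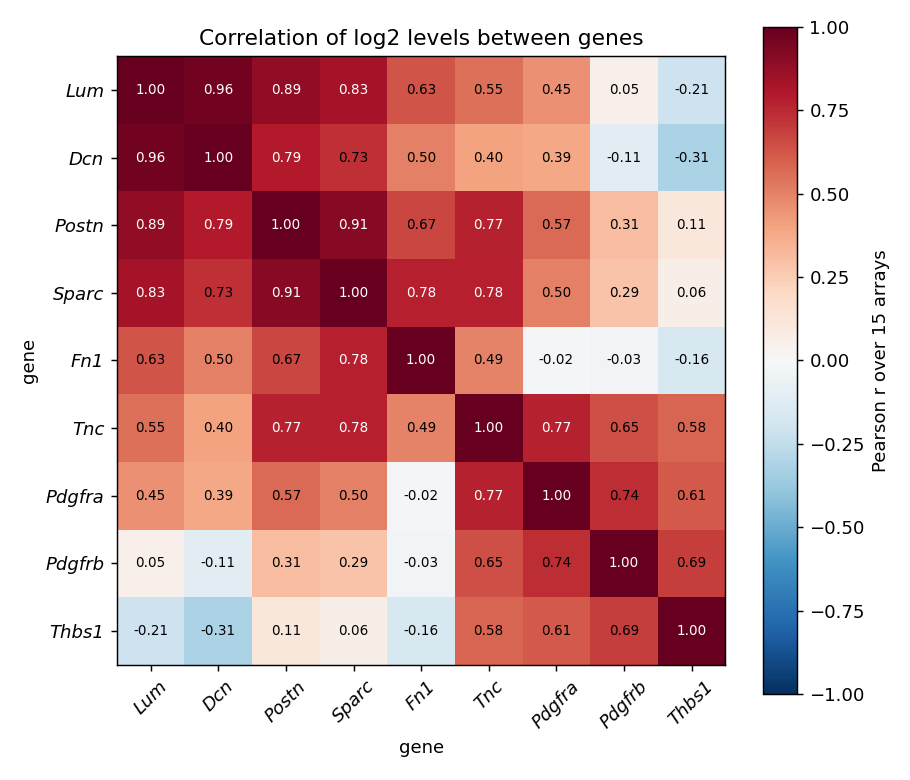
Pearson r between the log2 levels of each pair of the 9 genes over 15 arrays (ES cells left out); red is positive and blue negative. Pairs among Lum, Dcn, Postn and Sparc run from 0.73 to 0.96 and include the highest values. Tnc with Sparc (0.78), Postn (0.77) and Pdgfra (0.77) lies within that range. So do Fn1 with Sparc (0.78) and Pdgfra with Pdgfrb (0.74). Thbs1 shows r of -0.31 with Dcn.

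By the same measure over the same 15 arrays, the named genes with the most similar pattern to Lum were Crip2 (0.96) and Adamdec1 (0.95), and to Dcn Slc9a9 (0.97) and Ramp1 (0.96). Postn was most like Ccdc80 (0.96), which encodes a secreted matrix protein, and Tmem184b (0.90). For Tnc they were Lamc1 (0.96), a laminin chain of basement membranes, and Zscan18 (0.96), and for Pdgfra Flrt2 (0.97) and Robo2 (0.96). Thbs1 was closest to Tagln2 (0.92) and P4ha1 (0.92), the latter an enzyme of collagen maturation. Fn1 was closest to D16Ertd472e (0.97) and Igfbp2 (0.97), Sparc to Selenow (0.96) and Sdc3 (0.93), and Pdgfrb to Csrp1 (0.89) and Eif4e3 (0.87).

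The single ES cell array was high for several of the genes. Thbs1 read 12.87 and Fn1 12.80 there, Sparc 13.00, Tnc 11.57 and Postn 10.47. The Thbs1 level was above all 15 other arrays, and Tnc was above all but liver tumor array 3. Lum at 8.29, Pdgfra at 8.91 and Pdgfrb at 9.50 lay within the range of the tissues, whereas Dcn at 10.45 was below all of them. The array also carried some of the 14 fibroblast markers, with Col1a1 at 10.55, Thy1 at 11.21, Prrx1 at 10.94 and Twist2 at 9.91. Others were not bright. Dpt and Fap ranked near the middle of the genes on that array, at percentiles 50.4 and 45.5. Tcf21 and Pi16 lay in its dimmest 33.3% of genes. The summed fibroblast marker intensity was 12237. Its pluripotency genes Pou5f1 and Nanog stood at 12.33 and 12.93. Which cells of the culture gave the transcripts of the bright fibroblast markers was not tested, and with 1 array no comparison was made.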

How the data were processed

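Per the labels' protocols, RNeasy Plus Mini kits gave the total RNA of the 16 samples, which was biotinylated for Affymetrix arrays. The authors deposited linear intensities for each probe set, from 20.7 to 20262 with array medians of 191 to 226. The sources used here do not state how the authors corrected background or scaled the arrays, and mm9 is the only build in the submitters' processing notes. These intensities were converted to log2 without rescaling or filtering. Of 28856 probe sets, 21789 had 1 gene symbol in the platform annotation, 1621 several and 5446 none, and the probe set of highest mean was kept where a gene had several (999 genes), leaving 19938 genes.

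A linear model with a coefficient for each group was fitted to all genes and all 16 arrays with limma 3.58.1 under R 4.3.3 (10 residual and 2.66 prior degrees of freedom), 2-sided, Benjamini-Hochberg adjusted over all genes. Each gene has 1 estimate of spread for all groups together, and where leaving out arrays left 1 in a group, that array is assumed to vary like the other groups. The number of arrays limits the precision. Members and lists were chosen with earlier results of these data known. Of 204 entries in 20 further lists, 194 had a probe set. Named were all members, from each list the called genes of largest and second largest fold in a direction, and per member the 2 most correlated genes without predicted gene models. The fit was tested on simulated data. Centring arrays on their medians moved the median of all genes from -0.11 to -0.22 in kidney tumors, from -0.13 to -0.33 in secondary tumors against normal kidney and from -0.13 to -0.24 in liver tumors. Alternatives were other normalizations, probe set rules, moderation, array weights, a pseudocount, a dimness filter, a replicate block and arrays left out.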

Additional observations from a re-analysis of the deposited data

Results flagged for a closer look

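For 2 genes the tumor effect differed between the organs by a test of the difference itself in limma, with each organ's own normal tissue as control. The Fn1 effect was 2.70 ± 0.19 in kidney and 0.10 ± 0.19 in liver, a difference of 2.60 ± 0.27 (adjusted p = 7.43e-05), and all 3 kidney tumors but not all 3 liver tumors lay above their normal tissue. The Thbs1 effect was 0.54 ± 0.42 in kidney and 2.96 ± 0.42 in liver, a difference of -2.43 ± 0.60 (adjusted p = 0.0147; 0.00281 to 0.0862 over the alternatives), with all 3 tumors above normal tissue in both organs. The Fn1 call held in all 30 alternative settings. The Thbs1 call did not hold in 5 settings that left out the tumor arrays with high Xist or the arrays with high Adipoq.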

How the results depend on the processing

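Of 54 results for single genes (9 genes in 6 comparisons), 21 kept direction and call in all 30 alternative settings, 22 changed call and 16 changed sign in at least 1, and every one that changed sign was uncalled at first. With the replicate block the genes called numbered 3, 7, 5, 3, 6 and 2 (kidney tumor, secondary against normal kidney, secondary against primary tumor, liver tumor, normal kidney against normal liver, kidney minus liver effect), the counts found without it, and the block changed no call. The labels do not say that a number marks a shared origin, and the correlations of same-numbered deviations from group means ran from -0.278 to 0.272, so the numbers were not taken as pairs; all 3 samples correlated best with their own number for kidney tumor with normal kidney and with secondary tumor, and 0 of 3 for liver tumor with normal liver. Leaving out 1 array at a time gave 3 to 4, 7 to 7, 3 to 6, 3 to 5, 5 to 7 and 2 to 3. The 3 were without kidney tumor array 1 and the 5 in liver without liver tumor array 1. Array weights gave 5 in kidney tumors and 6 in liver tumors. Without kidney tumor arrays 2 and 3, 1 gene was called in kidney tumors and 1 for the kidney minus liver effect. Without liver tumor arrays 2 and 3, 1 was called in liver tumors. Without normal kidney array 2 and normal liver array 1, and without these and secondary tumor array 1, 1 was called for the kidney minus liver effect. The cause of these changes was not tested.

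Signs changed as follows. Over single arrays left out, Dcn in kidney tumors ran from -0.28 to 0.030, Pdgfra there from -0.044 to 0.12, Thbs1 in secondary tumors against normal kidney from -0.11 to 0.13, Fn1 in secondary against primary tumors from -0.21 to 0.25, Pdgfrb there from -0.17 to 0.11, Lum in liver tumors from -0.88 to 0.16, and the kidney minus liver effect of Postn from -0.47 to 0.84 and of Tnc from -0.86 to 0.75. Array weights gave -0.089 for Fn1 in secondary against primary tumors, 0.022 for Thbs1 in secondary tumors against normal kidney, and -0.0051 for Postn and -0.90 for Tnc as kidney minus liver effects. Centring on medians gave -0.0091 for Fn1 in liver tumors, -0.054 for Fn1 in secondary against primary tumors, -0.10 for Pdgfra in kidney tumors and -0.055 for Pdgfrb in secondary tumors against normal kidney. Quantile normalization gave -0.055 for Pdgfra in kidney tumors and 0.13 for Thbs1 in secondary tumors against normal kidney, and a pseudocount of 50 gave -0.074 for the Tnc kidney minus liver effect. Without kidney tumor arrays 2 and 3, kidney tumors gave -0.21 for Lum and -0.19 for Pdgfra, secondary against primary tumors 0.12 for Pdgfrb, and the kidney minus liver effect -0.028 for Dcn, -0.99 for Postn and -0.26 for Tnc. Without liver tumor arrays 2 and 3, liver tumors gave -0.067 for Pdgfrb, -0.30 for Postn and -0.13 for Sparc, and the kidney minus liver effect of Pdgfrb was 0.29. Without all 4 the single-organ values were the same, with effects of -0.022 for Dcn and 0.10 for Pdgfrb. Without normal kidney array 2 and normal liver array 1, Dcn was at 0.013 and Pdgfra at -0.032 in kidney tumors and the Tnc effect at -0.15, and the same values held with secondary tumor array 1 left out as well, where Fn1 in secondary against primary tumors was -0.21. The settings without liver tumor arrays 2 and 3, without all 4, and without the 3 arrays with high Adipoq were chosen after seeing the data. In every setting that left out arrays with high Xist or Adipoq, those arrays were picked by their values in these data.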
